A study of Homo sapiens with 3 samples.

Results

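The G2/M and mitosis genes are 48 genes that carry a cell from the end of DNA replication through chromosome segregation and division, chosen by name and matched to the deposited values by Ensembl ID and symbol. All 48 were among the 23379 genes with a value. A mean level of at least 1 FPKM (reads scaled by gene length and library total) over the 3 libraries was reached by 46 of them, here called the measured members, and by 10639 of all genes. NUSAP1 and PRC1 lay far below that level in every library.

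RNA was sequenced from cells labelled DU145, an established human line from a prostate carcinoma. The groups were a negative control labelled P-Enter, cells in which wild-type BRAF was overexpressed (WT) and cells transfected with plasmids for the BRAF mutant L597R, with 1 library each. The labels give neither the time after transfection, nor the promoter of the plasmids, nor whether the cells were selected or cloned. BRAF, a kinase of the RAS to ERK pathway, was at 1.65 FPKM (P-Enter), 4.41 (WT) and 9.59 (L597R), from 514, 1617 and 3733 reads, in which plasmid and endogenous transcripts cannot be told apart. Library totals worked out from the values were 13294004, 15665132 and 16603676 counted reads. Of 14 epithelial and prostate markers, 5 reached 1 FPKM, with KRT18 at 34.3, 36.6 and 37.6 FPKM and VIM at 129.9, 127 and 132 FPKM, while CDH1 had 1 read in P-Enter and 0 elsewhere; 6 of the 14 were not analysed here. None of the analysed leukocyte, fibroblast and endothelial markers reached 1 FPKM, and each of these lists summed to 0.00696 to 0.276 FPKM per library. With 1 library per group no difference has a replicate check or a p-value. Ratios below are read ratios per library total with exact 95% intervals in parentheses, which cover counting error only and so compare libraries, not conditions. In bulk RNA, fewer cells in G2 or mitosis and less RNA per cell cannot be told apart.

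As background, entry into mitosis is switched on by the kinase CDK1 bound to cyclins A and B. Polo and Aurora kinases then build the spindle, condensins compact the chromosomes, kinetochores attach them to microtubules, and the spindle checkpoint holds back the anaphase-promoting complex (APC/C) until every chromosome is attached. Most of these genes are transcribed in G2, under the MuvB complex with B-MYB and FOXM1, and their messages are low in resting cells, so that they serve as a readout of proliferation in tumour cells.

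The members were abundant transcripts in all 3 libraries. The median level of the 46 measured members was 29.5 FPKM (P-Enter), 32.5 (WT) and 38.04 (L597R). The median of the mean levels was 33.2 FPKM for them and 7.33 for all genes tested. Together the 48 members took 0.9103% of all counted reads in P-Enter (exact binomial 95% interval 0.905 to 0.915), 0.9304% in WT (0.926 to 0.935) and 0.973% in L597R (0.968 to 0.978). The share was thus highest in L597R by more than counting error. The longest transcripts of the measured members had a median GC content of 42.8%, against 47.5% for all genes tested. The libraries differed along GC content, as given below, and the share was not adjusted for that. Of the measured members 45 had a mean of at least 8 FPKM and at least 707 reads in every library, and 1, SPC25, lay between 1 and 8 FPKM.

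**Figure D1:**
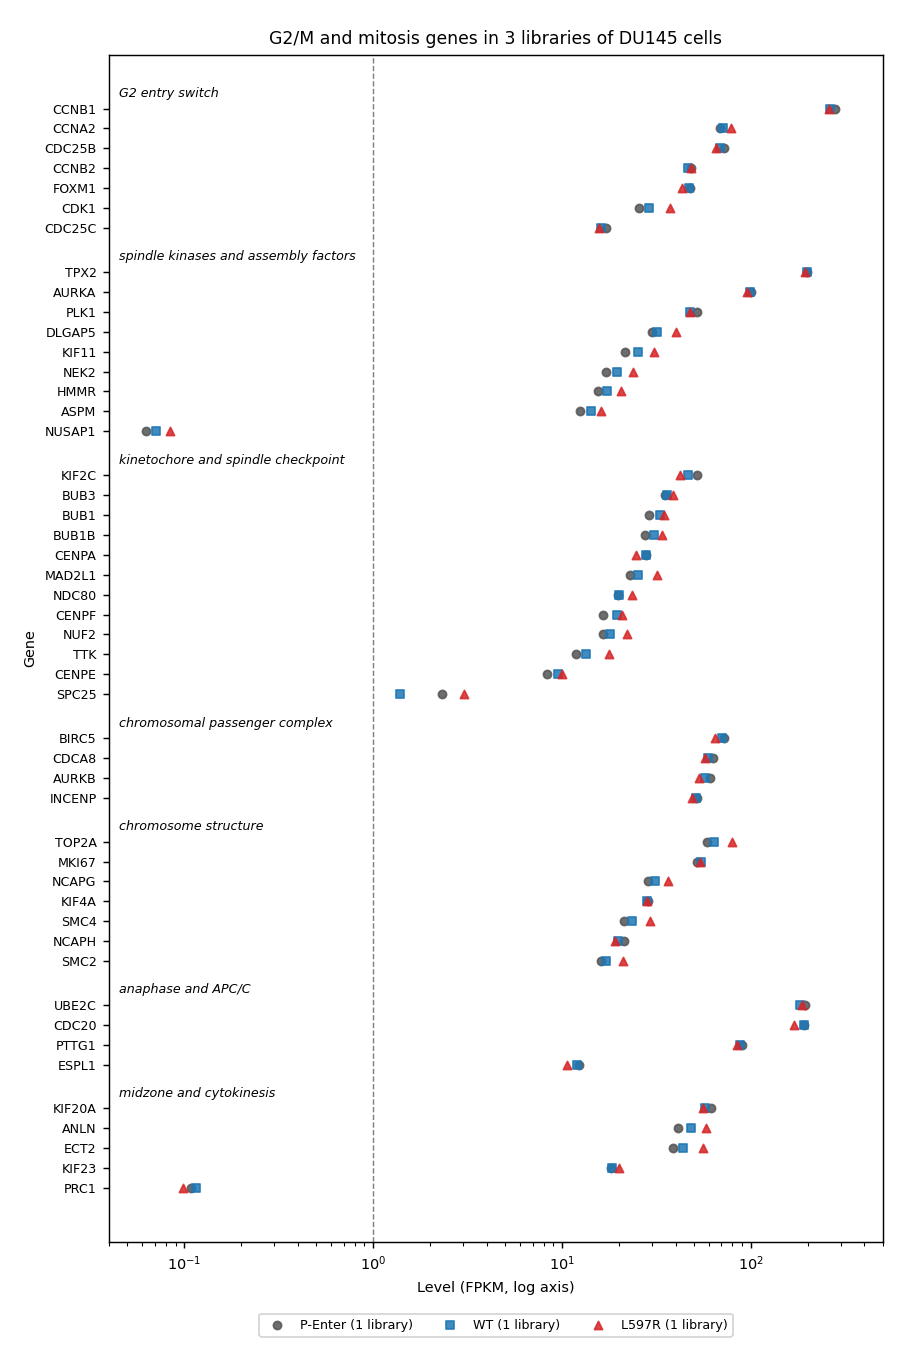
Levels of the 48 genes in FPKM on a log axis, grouped by role and ordered by mean level, with 1 point for each of the 3 libraries and a dashed line at 1 FPKM. The points of SPC25 lie furthest apart, and NUSAP1 and PRC1 lie far to the left of the line.

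The differences between libraries were small. By a size rule of at least 1 in log2(FPKM + 1), a scale on which changes of low genes are understated, 0 of the 46 measured members passed in any comparison, where 0.978% of all genes tested passed in WT against P-Enter, 0.808% when L597R was set against P-Enter, and 0.724% when it was set against WT. Among genes with a mean of at least 5 FPKM these shares were 0.138%, 0.2% and 0.123% in the same order, with 0 of 45 members. At such shares a count of 0 does not set the members apart. SPC25 aside, WT stood at 0.895 to 1.18 times P-Enter over the measured members. L597R stood at 0.812 to 1.504 times P-Enter and 0.886 to 1.34 times WT. Many of these small ratios were nevertheless larger than counting error, and they went in both directions.

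In WT against P-Enter the interval lay above 1 for 17 of 46 measured members, where 14% of all genes tested lay above, and below 1 for 7, where 12.1% of all genes lay below. In L597R against P-Enter the counts were 24 above (all genes 25.6%) and 15 below (23.9%). In L597R against WT they were 23 above (all genes 22.1%) and 9 below (16.3%). The members have more reads than most genes, which narrows their intervals; among genes with a mean of at least 5 FPKM the shares of all genes were 16.5% above and 14.4% below in the first comparison, 28.5% and 30.3% in the second, and 26% and 21% in the third. The median log2(FPKM + 1) difference of the measured members was 0.01, 0.13 and 0.07 in that order, against 0.00, -0.01 and 0.01 over all genes tested. The comparisons share libraries, so their counts are not independent of one another.

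**Figure D2:**
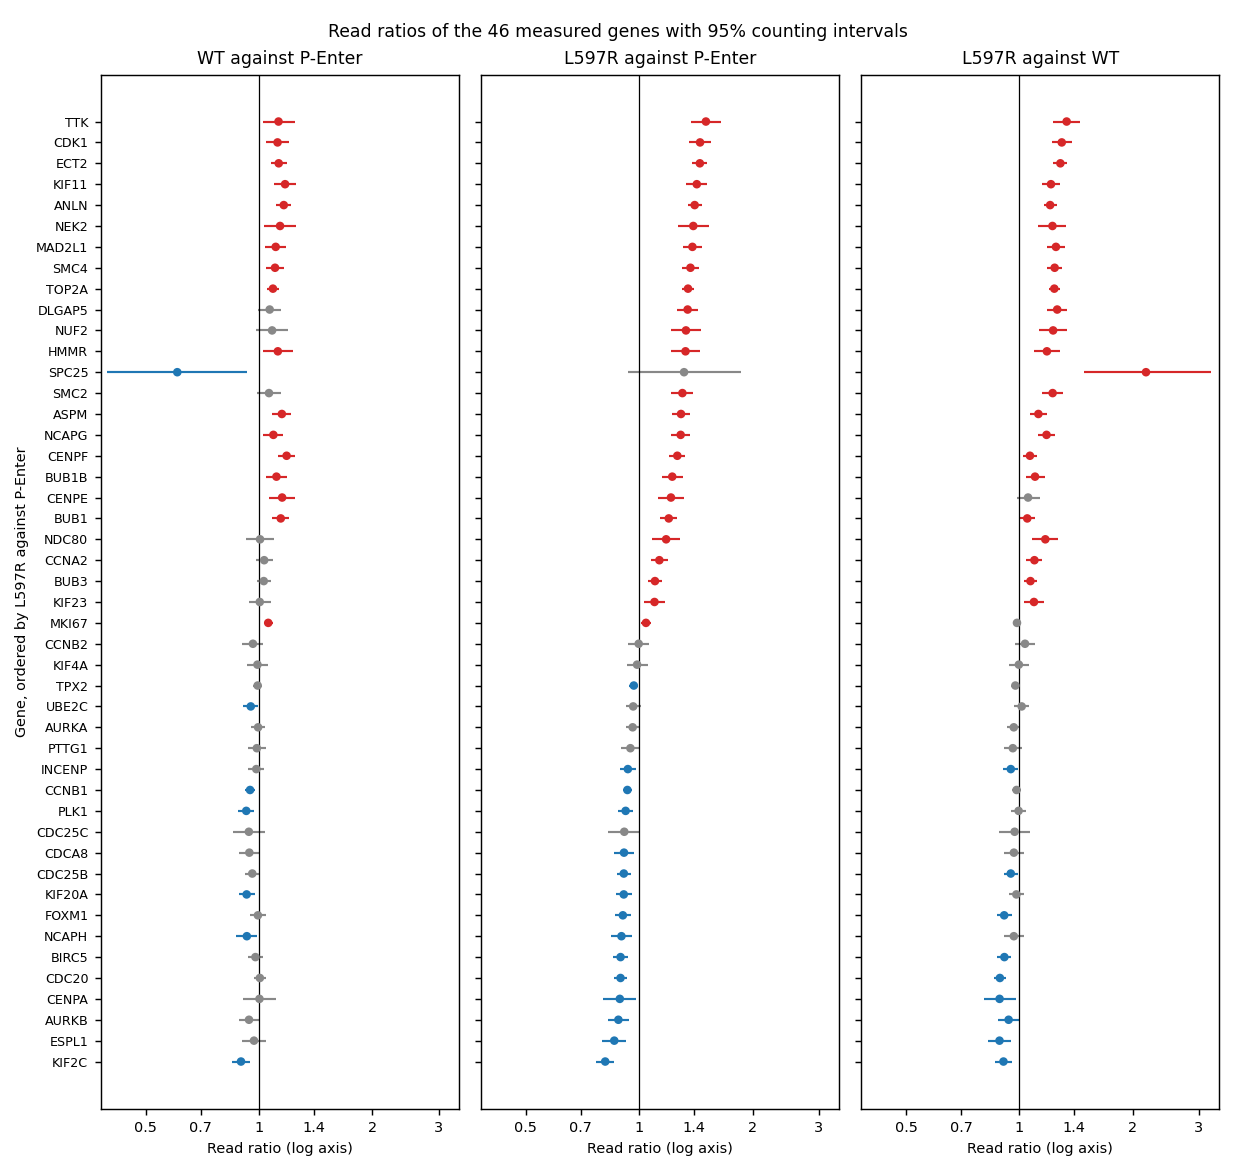
Read ratios of the 46 measured members in the 3 comparisons on log axes, with exact 95% counting intervals, ordered by L597R against P-Enter; red intervals lie above 1, blue below 1 and grey cover 1. In the middle panel 24 intervals lie above 1 and 15 below, and SPC25 has the widest interval in each panel.

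The direction of a member's ratio went with the GC content of its longest annotated transcript. In L597R against P-Enter the interval lay above 1 for all 13 measured members under 40% GC, for 11 of 22 members from 40 to 50%, with 5 below, and for 0 of 11 members at 50% or more, with 10 below. The median log2 read ratios of these groups were 0.43, 0.10 and -0.14. Among other protein-coding genes the interval lay above 1 for 1264 and below for 18 of 1669 in the lowest range, above for 1231 and below for 524 of 3696 in the middle range, and above for 82 and below for 1831 of 3892 in the highest. These genes had medians of 0.34, 0.06 and -0.14 in the same order. The same slope, less steep, was seen in WT against P-Enter, with medians of 0.15, 0.00 and -0.06 for the members and 0.13, 0.02 and -0.05 for the other genes. Across genes, Spearman's rho of GC content with the log2 ratio was -0.72 over 46 members and -0.44 over 9257 other protein-coding genes in WT against P-Enter, -0.86 and -0.68 in L597R against P-Enter, and -0.85 and -0.58 in L597R against WT. Genes are not independent replicates, all points share the same libraries, and these values are a description.

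Each ratio was also divided by a trend in length, GC content and mean level, from a regression over 9303 protein-coding genes, a step added after the values were seen. In WT against P-Enter the interval then lay above 1 for 7 members (all protein-coding genes 10.2%) and below 1 for 5 (10.8%). In L597R against P-Enter it lay above 1 for 17 of 46 members (all protein-coding genes 17.3%) and below for 6 (16.7%). In L597R against WT it lay above 1 for 13 members (all protein-coding genes 13.9%) and below for 7 (13.4%). The percentages are those of all protein-coding genes at a mean of 1 FPKM or more. None was worked out at 5 FPKM or more, where intervals are narrower. The median differences of the members became 0.02, 0.04 and 0.02 on the log2 scale. What makes the libraries differ along GC content was not tested.

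**Figure D3:**
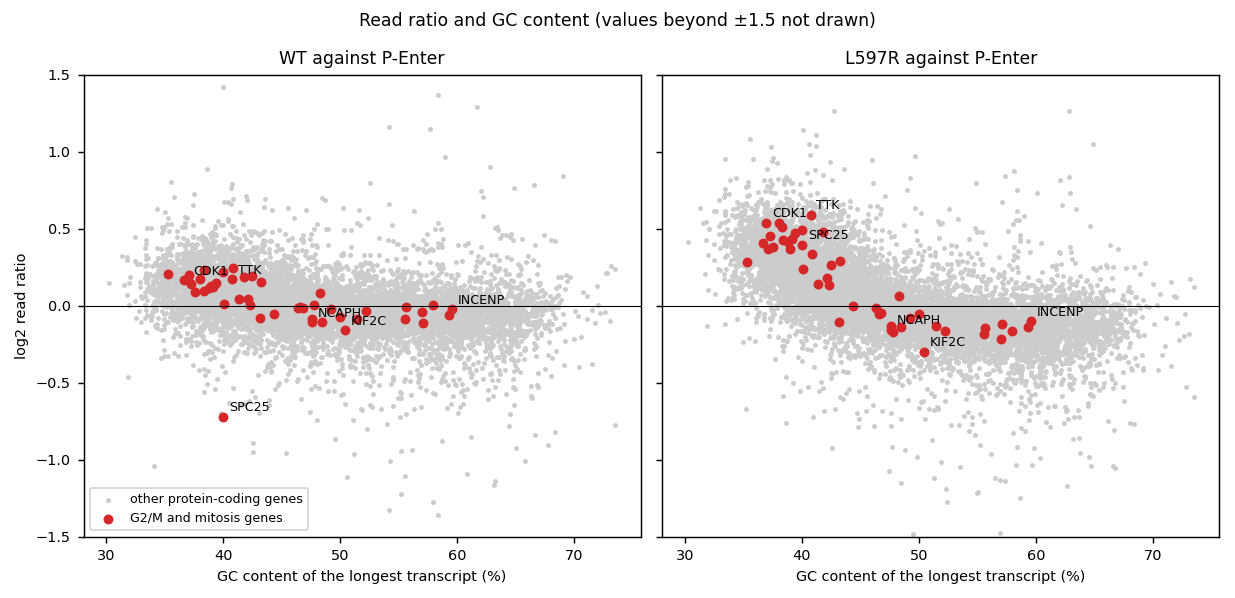
log2 read ratio against the GC content of the longest transcript, for WT against P-Enter (left) and L597R against P-Enter (right), with 1 point per gene; the 46 measured members are red and other protein-coding genes grey. In both panels the members follow the slope of the other genes, from above 0 at low GC to below 0 at high GC, and SPC25 lies apart on the left.

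The genes of the switch into mitosis went both ways. CDK1, the kinase that drives mitotic entry, was at 25.7 FPKM (P-Enter), 28.8 (WT) and 37.3 (L597R), with L597R at 1.45 (1.36 to 1.55) times P-Enter. Its partner CCNB1 (cyclin B1), the most abundant member, went the other way, at 279 FPKM (P-Enter), 264 (WT) and 259.7 (L597R), with WT at 0.946 (0.9195 to 0.973) and L597R at 0.9301 (0.904 to 0.957) times P-Enter. CDK1 has 36.96% GC and CCNB1 43.2%; over the regression trend the L597R ratios were 1.15 (1.07 to 1.23) and 0.871 (0.847 to 0.896), so they stayed on opposite sides. CCNA2 (cyclin A2) was at 69.1, 71.3 and 78.2 FPKM in the order P-Enter, WT and L597R, and CCNB2 (cyclin B2) at 48.3, 46.5 and 48.2 FPKM. CCNA2 was above P-Enter in L597R by more than counting error, at 1.13 (1.07 to 1.19), and CCNB2 differed by less than counting error in every comparison. CDC25B and CDC25C, the phosphatases that activate CDK1, were at 72.04, 69.1 and 65.6 FPKM and at 17.2, 16.1 and 15.6 FPKM. FOXM1, the transcription factor of late cell-cycle genes, was at 47.6, 47.2 and 43.02 FPKM, with a ratio of 0.905 (0.862 to 0.9497) for L597R against P-Enter. In all, 2 of 7 genes of the entry switch lay above P-Enter in L597R and 3 below, where 25.6% and 23.9% of all genes tested did. Over the trend the counts were 1 above 1 and 1 below. CCNA2 at 1.02 (0.973 to 1.08), FOXM1 at 1.01 (0.966 to 1.06) and CDC25B at 1.04 (0.996 to 1.09) then had intervals that cover 1. CDK1 lies on chromosome 10 from 60778331 to 60794852, and CCNB1 on chromosome 5 from 69167010 to 69178245.

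Among the genes of spindle kinases and spindle assembly, motors and assembly factors of low GC were higher in L597R and the 3 most abundant genes were not. TPX2, which activates Aurora A on spindle microtubules, was at 199.7, 198 and 193 FPKM in the order P-Enter, WT and L597R. AURKA itself was at 99.8, 99.2 and 95.9 FPKM and PLK1, the polo-like kinase, at 51.7, 47.8 and 47.5 FPKM. These 3 genes, of 46.8, 46.6 and 57.1% GC, had L597R ratios to P-Enter of 0.967 (0.941 to 0.994), 0.961 (0.9203 to 1.003) and 0.9202 (0.878 to 0.965). KIF11, the motor that pushes the spindle poles apart, was at 21.7 FPKM (P-Enter), 25.4 (WT) and 30.8 (L597R). Its ratio to P-Enter was 1.17 (1.097 to 1.25) in WT and 1.42 (1.34 to 1.51) in L597R. ASPM, a spindle pole protein, was at 12.4, 14.3 and 16.05 FPKM and NEK2, a centrosome kinase, at 17.2, 19.5 and 23.9 FPKM. DLGAP5 and HMMR, microtubule-binding factors of the spindle, were at 29.9, 31.9 and 40.2 FPKM and at 15.5, 17.4 and 20.6 FPKM. These last 5 genes had GC contents of 38.3% for KIF11, 37.1% for ASPM, 41.8% for NEK2, 38.4% for DLGAP5 and 36.7% for HMMR, and all of them lay above P-Enter in L597R. Over the 8 measured genes of the group the median log2(FPKM + 1) difference was 0.37 for L597R against P-Enter and 0.07 after the regression. Over the trend, 3 above 1 and 0 below remained: KIF11, NEK2 and DLGAP5 lay above, while TPX2, PLK1, HMMR and ASPM had intervals that cover 1.

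Of the 12 kinetochore and checkpoint genes, 6 lay above P-Enter in WT and 9 in L597R, with 2 and 2 below. Over all genes tested 14% lay above in WT and 25.6% in L597R, with 12.1% and 23.9% below. TTK (MPS1), the kinase that starts checkpoint signalling, had the highest L597R ratio to P-Enter of all measured members, 1.504 (1.37 to 1.65), at 11.9 FPKM (P-Enter), 13.4 (WT) and 17.8 (L597R). WT lay between the other libraries for TTK, at a ratio of 1.13 (1.02 to 1.24) to P-Enter. MAD2L1, which binds and restrains CDC20, was at 22.9, 25.4 and 31.8 FPKM in the order P-Enter, WT and L597R. The checkpoint genes BUB1, BUB1B and BUB3 were at 29.1, 33.2 and 34.8 FPKM, at 27.7, 30.8 and 33.8 FPKM and at 35.2, 36.2 and 38.8 FPKM. CENPF, a large kinetochore protein, had the highest WT ratio to P-Enter of the measured members, 1.18 (1.12 to 1.25), at 16.5, 19.5 and 20.8 FPKM. CENPE, the kinetochore motor, was at 8.29, 9.54 and 10.1 FPKM, with ratios of 1.15 (1.06 to 1.25) in WT and 1.21 (1.12 to 1.31) in L597R. Over the regression trend, CENPE turned to the other side in L597R, at 0.902 (0.836 to 0.975); its 35.3% GC is the lowest of the members. Lower in L597R were CENPA, the centromeric histone, at 27.9, 28 and 24.8 FPKM, and KIF2C, a microtubule depolymerase of the centromere, at 52.03, 46.6 and 42.3 FPKM. KIF2C had the lowest L597R ratio to P-Enter, 0.812 (0.768 to 0.858), and was also below P-Enter in WT, 0.895 (0.847 to 0.946); over the trend it was 0.8604 (0.814 to 0.909) in L597R. The counts of the 12 genes over the trend were 6 above 1 and 3 below in L597R and 3 above 1 and 2 below in WT, with BUB3 and NDC80 in L597R no longer above 1. TTK lies on chromosome 6 from 80003887 to 80042527, and KIF2C on chromosome 1 from 44739818 to 44767767.

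SPC25 stood apart from the rest of its complex. The NDC80 complex, which grips the microtubule end, is built of NDC80, NUF2, SPC24 and SPC25. NDC80 was at 19.9, 20.01 and 23.5 FPKM in the order P-Enter, WT and L597R, NUF2 at 16.6, 17.9 and 22.03 FPKM and SPC24, not a member, at 18.4, 17.4 and 15.8 FPKM. SPC25 was at 2.303, 1.396 and 3.03 FPKM, from 56, 40 and 92 reads. Per length SPC25 was thus the lowest of the 4 in every library, and WT held its lowest value. WT stood at 0.606 (0.394 to 0.926) times P-Enter and L597R at 1.32 (0.934 to 1.87) times, and L597R at 2.17 (1.48 to 3.23) times WT, the only ratio over 2 among the measured members. With a pseudocount of 0.1 in place of 1 it passed the size rule in L597R against WT. SPC25 shares no exon base with another gene in GENCODE 29 and lies on chromosome 2 from 168834132 to 168913371; a low level and reads lost in alignment or counting cannot be told apart in these values.

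The chromosomal passenger complex, which corrects wrong attachments and guides cytokinesis, had every subunit below P-Enter in L597R by more than counting error. The kinase AURKB was at 60.8 FPKM (P-Enter), 57.1 (WT) and 53.5 (L597R), a ratio of 0.8802 (0.826 to 0.939) for L597R against P-Enter. INCENP, its scaffold, was at 52.1, 51.2 and 48.6 FPKM, BIRC5 (survivin) at 72.2, 70.6 and 64.4 FPKM and CDCA8 (borealin) at 62.8, 59.2 and 57.2 FPKM. The interval lay below 1 for 4 of 4 in L597R and for 0 of 4 in WT, where 23.9% and 12.1% of all genes tested lay below. Among protein-coding genes outside the members at 50% GC or more, 1831 of 3892 lay below in L597R. Levels per length were close to each other, between 48.6 and 72.2 FPKM over all 3 libraries. The median GC content of the 4 was 53.9%, and the median difference of -0.15 became -0.04 after the regression; over the trend none of the 4 stayed below 1 in L597R. There AURKB at 0.985 (0.924 to 1.05), BIRC5 at 0.971 (0.929 to 1.02) and CDCA8 at 0.978 (0.921 to 1.04) had intervals that cover 1, and INCENP lay above it, at 1.06 (1.01 to 1.12).

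Condensin subunits differed in direction within 1 complex. The ATPases SMC2 and SMC4 were at 16.1, 17.1 and 20.98 FPKM and at 21.3, 23.5 and 29.1 FPKM in the order P-Enter, WT and L597R, and NCAPG, a HEAT-repeat subunit, at 28.4, 30.99 and 36.6 FPKM. All 3 lay above P-Enter in L597R, with ratios of 1.302 (1.22 to 1.39), 1.37 (1.299 to 1.44) and 1.29 (1.22 to 1.37). NCAPH, the kleisin that closes the same ring, was at 21.2, 19.7 and 19.05 FPKM, and the further subunit NCAPD2, not a member, at 77.9, 78.4 and 71.9 FPKM. These 2 lay below P-Enter in L597R, at 0.897 (0.842 to 0.955) and 0.923 (0.893 to 0.954). The GC contents were 37.6% for SMC2, 37.3% for SMC4 and 39% for NCAPG, against 47.6% for NCAPH and 52.5% for NCAPD2. Over the trend, SMC2 in L597R had an interval that covers 1, 1.04 (0.972 to 1.11), while SMC4 at 1.08 (1.03 to 1.14) and NCAPG at 1.07 (1.01 to 1.14) stayed above and NCAPH at 0.9004 (0.845 to 0.959) below. SMC4 shares 25.6% of its exon bases with TRIM59 and IFT80 and NCAPG 33.1% with LCORL, all on the opposite strand, and the strand setting of the counting is not given in the sources used here.

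TOP2A, the topoisomerase that untangles sister chromatids, was at 58.9 FPKM (P-Enter), 64.1 (WT) and 79.4 (L597R). WT stood at 1.09 (1.05 to 1.13) and L597R at 1.35 (1.301 to 1.396) times P-Enter, the latter at 1.13 (1.09 to 1.17) over the trend. MKI67, the proliferation antigen Ki-67 that coats mitotic chromosomes, was at 51.9, 54.9 and 54.1 FPKM from 8858, 11037 and 11529 reads, with ratios of 1.06 (1.03 to 1.09) and 1.04 (1.01 to 1.07). MKI67 was thus above P-Enter in both libraries, by a small margin. The chromosome motor KIF4A, at 28.6, 28.3 and 28.2 FPKM, differed by less than counting error in every comparison.

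None of the 4 genes around the anaphase-promoting complex had an interval above 1 in WT or L597R against P-Enter, where 14% and 25.6% of all genes tested had one. CDC20, the activator of the APC/C, was at 190.4 FPKM (P-Enter), 191 (WT) and 169.8 (L597R), so that WT differed from P-Enter by less than counting error, 1.005 (0.968 to 1.04), and L597R lay below it, 0.892 (0.859 to 0.926). UBE2C, the ubiquitin-conjugating enzyme of the APC/C, was at 193, 183 and 186 FPKM. PTTG1 (securin), which holds back separase, was at 89.4, 88.1 and 84.7 FPKM, and ESPL1 (separase), which cuts cohesin, at 12.3, 11.96 and 10.6 FPKM. ESPL1 had a ratio of 0.858 (0.799 to 0.923) in L597R against P-Enter, while UBE2C at 0.964 (0.92 to 1.01) and PTTG1 at 0.947 (0.896 to 1.001) differed by less than counting error there; UBE2C was below P-Enter in WT, 0.9502 (0.906 to 0.996). CDC20 has 57.9% GC and ESPL1 56.98%; over the trend their L597R ratios were 1.02 (0.983 to 1.06) and 0.956 (0.8898 to 1.03), both with intervals that cover 1. In WT, 1 of the 4, CDC20, lay above 1 over the trend, at 1.07 (1.03 to 1.11).

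Of the genes of the central spindle and cytokinesis, ECT2 and ANLN were among the members furthest above P-Enter. ECT2, the exchange factor that turns on RhoA at the cleavage furrow, was at 38.6 FPKM (P-Enter), 43.5 (WT) and 55.9 (L597R), a ratio of 1.13 (1.07 to 1.18) for WT and 1.45 (1.38 to 1.52) for L597R against P-Enter. ANLN (anillin), the scaffold of the contractile ring, was at 41.4 FPKM (P-Enter), 48.2 (WT) and 58.2 (L597R), with ratios of 1.16 (1.11 to 1.22) and 1.404 (1.34 to 1.47). Over the trend both stayed above 1 in L597R, at 1.18 (1.13 to 1.24) and 1.205 (1.15 to 1.26), and KIF23 did not, at 0.988 (0.926 to 1.05). The midzone motors KIF23 and KIF20A were at 18.2, 18.3 and 20.03 FPKM and at 61.7, 57.2 and 56.1 FPKM. KIF20A, of 48.4% GC, was below P-Enter in both libraries, 0.927 (0.883 to 0.973) and 0.9097 (0.867 to 0.955). ECT2 lies on chromosome 3 from 172750682 to 172821474, and ANLN on chromosome 7 from 36389806 to 36453791.

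NUSAP1 and PRC1 were near 0 in all 3 libraries. NUSAP1, a microtubule-bundling protein of the spindle, had 3, 4 and 5 reads, or 0.0625, 0.0708 and 0.0835 FPKM in the order P-Enter, WT and L597R. PRC1, which bundles the microtubules of the midzone, had 8, 10 and 9 reads, or 0.109, 0.116 and 0.0981 FPKM. The partners of PRC1 at the midzone, KIF4A, KIF20A and KIF23, were all at 18.2 FPKM or more. Ratios of the near-0 pair rest on too few reads to tell any direction: L597R stood at 1.33 (0.2596 to 8.59) times P-Enter for NUSAP1 and 0.901 (0.308 to 2.68) times for PRC1.

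What sets this pair apart from the other members in the annotation is shared exons. NUSAP1 lies on the plus strand of chromosome 15 from 41332694 to 41381050, and 62.2% of its exon bases in GENCODE 29 also belong to AC087721.2, a protein-coding gene on the same strand. PRC1 lies on the minus strand of chromosome 15 from 90966038 to 90995629, and 57.6% of its exon bases also belong to ENSG00000284946, a protein-coding gene on its strand that reaches from PRC1 into the next gene, VPS33B. That next gene, a subunit of a vesicle-tethering complex, shares 52.1% and was near 0 too, at 0.361, 0.221 and 0.225 FPKM, and ENSG00000284946 itself was at 0.831, 0.688 and 0.851 FPKM. Of the other 46 members, BUB1B shares 10.2% and CENPA 6.96% on the same strand, and the other 44 share none. Over protein-coding genes, 12.7% of 252 with at least 50% shared bases reached a mean of 1 FPKM (median 0.0762 FPKM), against 67.9% of 11825 with none (median 3.93 FPKM). Counting programs can leave out reads that fall on more than 1 gene, and how such reads were treated here is not given in the sources used here. The shares leave part of the exon bases of NUSAP1 and PRC1 outside any other gene on their strand. MAD1L1, a mitotic gene outside the members, was near 0 with no exon base shared on its strand. NUSAP1 and PRC1 are given as possibly uncounted, which was not tested, and their levels are not read as low expression.

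**Figure D4:**
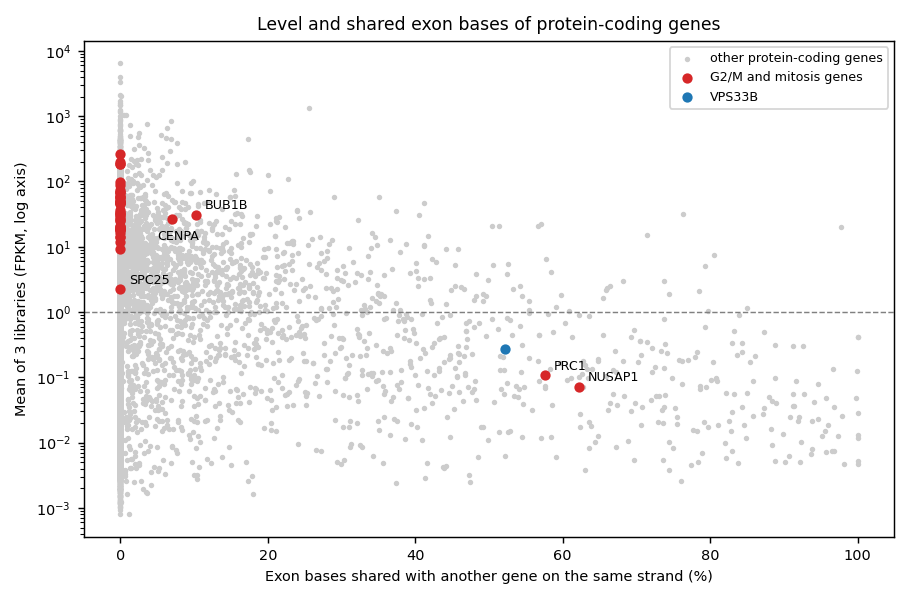
Mean level of the 3 libraries (FPKM, log axis) against the share of a gene's exon bases that another gene on the same strand also covers, with 1 point per protein-coding gene; members are red and VPS33B blue. NUSAP1 and PRC1 lie at 62.2% and 57.6% below the dashed line at 1 FPKM, among other genes with a large share, and SPC25 lies at 0%.

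Many of the members share promoter letters that the choice by name did not use. MuvB binds a short element called CHR, with the core TTTGAA, and NF-Y binds CCAAT boxes, which in late cell-cycle genes often lie a few turns of the helix upstream of it. RefSeq promoter windows of 250 bases before to 50 after the transcript start (GRCh38.p14) were matched for 41 of 48 members, in 53 windows, since some genes have several starts; windows of close starts overlap. TTTGAA was found on either strand in 33 of the 53 windows (62.3%), against 15.2% of all 35116 windows and 10.2% of the 11297 windows of protein-coding genes at 1 FPKM or more. CCAAT was found in 37 (69.8%), against 34.6% and 35.6%, and both in 25 (47.2%), against 5.903% and 4.22%. Counted by gene, 30 of the 41 had TTTGAA, 32 had CCAAT and 23 had both, among them NUSAP1, PRC1 and SPC25. A match is a description of letters and not a binding site.

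The 6 most abundant of the matched members with both motifs are shown by the 200 bases before the transcript start, read 5′ to 3′ on the strand of the gene, with every TTTGAA and CCAAT on either strand in capitals (TTCAAA and ATTGG are the reverse strand). They include genes of both directions, TOP2A and MKI67 above P-Enter in L597R and CDC20, CDCA8, INCENP and PLK1 below.
CDC20 chr1:43358781-43358980 (plus strand): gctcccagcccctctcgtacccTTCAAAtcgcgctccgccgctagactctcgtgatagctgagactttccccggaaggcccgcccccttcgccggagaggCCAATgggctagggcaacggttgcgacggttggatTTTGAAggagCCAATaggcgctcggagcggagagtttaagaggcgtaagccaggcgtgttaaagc
TOP2A chr17:40417897-40418096 (minus strand): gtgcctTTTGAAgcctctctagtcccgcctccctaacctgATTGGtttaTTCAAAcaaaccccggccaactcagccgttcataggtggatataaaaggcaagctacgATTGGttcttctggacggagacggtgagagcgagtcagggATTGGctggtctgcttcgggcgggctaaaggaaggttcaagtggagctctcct
CDCA8 chr1:37692316-37692515 (plus strand): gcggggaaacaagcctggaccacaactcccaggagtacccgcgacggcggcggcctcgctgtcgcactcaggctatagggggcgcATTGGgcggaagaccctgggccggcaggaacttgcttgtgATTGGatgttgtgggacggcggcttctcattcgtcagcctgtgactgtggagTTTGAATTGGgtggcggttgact
MKI67 chr10:128126424-128126623 (minus strand): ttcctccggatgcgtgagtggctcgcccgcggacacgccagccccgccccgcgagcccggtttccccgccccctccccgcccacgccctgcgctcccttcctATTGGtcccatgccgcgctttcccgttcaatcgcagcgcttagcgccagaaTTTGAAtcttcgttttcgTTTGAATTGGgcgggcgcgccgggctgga
INCENP chr11:62123811-62124010 (plus strand): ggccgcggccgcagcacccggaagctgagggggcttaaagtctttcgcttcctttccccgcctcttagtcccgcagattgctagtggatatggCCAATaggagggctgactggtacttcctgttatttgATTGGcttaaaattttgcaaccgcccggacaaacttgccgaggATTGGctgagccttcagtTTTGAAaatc
PLK1 chr16:23678689-23678888 (plus strand): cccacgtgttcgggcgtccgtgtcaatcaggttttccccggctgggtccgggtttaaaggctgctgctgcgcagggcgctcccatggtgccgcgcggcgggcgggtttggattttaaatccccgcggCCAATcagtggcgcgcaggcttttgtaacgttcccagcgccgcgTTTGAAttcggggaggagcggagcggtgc

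The TTTGAA nearest the start begins at -65 in CDC20, -151 in TOP2A, -23 in CDCA8, -29 in MKI67, -10 in INCENP and -29 in PLK1, and the nearest CCAAT at -55, -53, -18, -24, -28 and -73 in the same genes. In CDCA8 and MKI67 both motifs overlap in the run TTTGAATTGG. Over all windows of the members the 45 matches of TTTGAA had a median position of -29 bases from the start and the 77 matches of CCAAT one of -79. The median log2 read ratio of L597R to P-Enter was 0.13 over 21 measured members with both motifs in any of their windows and 0.25 over 18 without, and of WT to P-Enter 0.01 and 0.07. With the first listed window of each gene alone, the L597R medians were 0.24 over 20 members and 0.24 over 19, so the difference depends on which window is read.

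**Figure D5:**
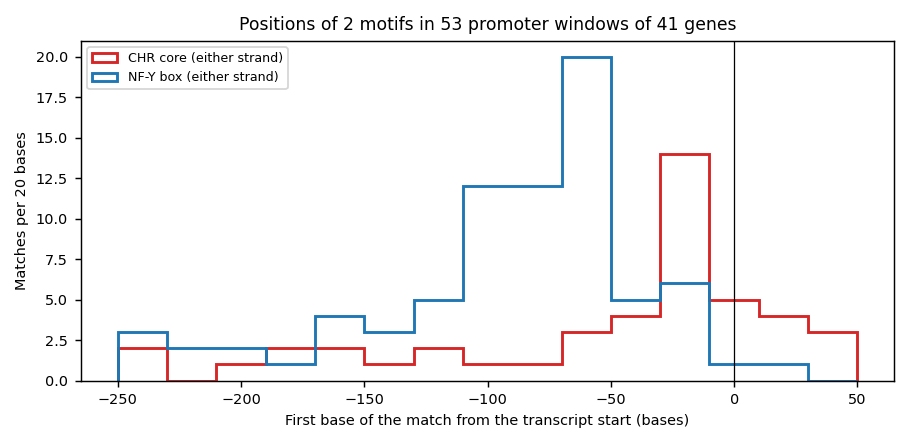
Positions of the CHR core and the NF-Y box on either strand in 53 promoter windows of 41 members, as matches per 20 bases from 250 bases before to 50 bases after the transcript start. The CHR core is most frequent from -30 to -10 bases, with 14 matches, and the NF-Y box further upstream, from -70 to -50 bases, with 20.

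Other genes of the same machinery, in lists drawn up by function, also went both ways. In L597R, cohesin and other condensin subunits had 10 of 13 above P-Enter and 2 below; they form the rings that hold and fold chromosomes, with PDS5B, a cohesin regulator, furthest from P-Enter at 1.43 (1.29 to 1.58). Other kinetochore genes had 13 of 26 above P-Enter and 4 below, with CENPK, a subunit of the inner kinetochore, furthest from P-Enter at 1.61 (1.45 to 1.78). Other mitotic kinesins and cytokinesis genes had 5 of 11 above P-Enter and 3 below, with KIF14, a motor of the midbody, at 1.57 (1.43 to 1.72). The APC/C subunits had 4 of 15 above P-Enter and 5 below, with the subunit CDC27 at 1.31 (1.23 to 1.397). Other G2/M genes of proliferating cells had 8 of 20 above P-Enter and 7 below, with CKAP2, a spindle protein, at 1.49 (1.39 to 1.599). In WT the same 5 lists had 8, 8, 5, 1 and 4 above P-Enter and 0, 1, 2, 1 and 6 below. The shares over all genes tested were those given above for the same comparisons. PDS5B, CENPK, KIF14, CDC27 and CKAP2 had 36.5, 32.9, 38.3, 36.6 and 36.8% GC. Under 40% GC, 1264 of 1669 protein-coding genes outside the members lay above P-Enter in L597R. The 5 lists, in the order above, had median log2(FPKM + 1) differences of 0.27, 0.15, 0.20, 0.02 and -0.05 in L597R against P-Enter. After the regression these medians were 0.10, 0.04, -0.04, -0.02 and -0.01.

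Regulators upstream of the members went both ways. Of 13 measured inhibitory kinases and MuvB or E2F regulators, 4 were above P-Enter in L597R and 3 below. Over all genes tested the shares in this comparison were 25.6% above and 23.9% below. LIN54, the MuvB subunit that binds the CHR, was at 4.27, 5.58 and 6.24 FPKM in the order P-Enter, WT and L597R, a ratio of 1.46 (1.29 to 1.66) at 39.1% GC. MYBL2 (B-MYB), its partner in G2, was at 76.96, 69.8 and 64.2 FPKM, a ratio of 0.834 (0.792 to 0.878) at 60.5% GC. WEE1, the kinase that holds CDK1 inactive, was at 6.45, 6.36 and 6.39 FPKM, 0.9905 (0.901 to 1.09). The genes of G1/S and DNA replication, the phase before, had 8 of 34 above P-Enter in L597R and 15 below, with a median log2(FPKM + 1) difference of -0.07 against 0.13 for the members; their median GC content was 49.4% against 42.8%, and after the regression the medians were -0.02 and 0.04. CCNE2 (cyclin E2) was furthest from P-Enter among them, at 1.57 (1.26 to 1.96). The difference between the lists was not tested.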

How the data were processed

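RNA sequencing of 3 DU145 libraries was analysed, 1 for each group. The deposited values are FPKM for Ensembl genes, per the file headers. Trimmomatic, HISAT2, Cufflinks and HTSeq, with the builds hg38 and GRCh38, are named in the submitters' processing notes; their versions, the annotation and the strand setting are not given in the sources used here. Per the labels' protocols a stranded mRNA kit was used.

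Symbols matched 23330 and GENCODE 29 22807 of 23379 IDs. FPKM is reads scaled by gene length and library total, so reads were recovered by finding the totals and whole-number lengths at which each gene has whole reads in all libraries (tolerance 1e-05 of a read, or 3e-09 of the number if larger), with the length nearest the annotated one within 3-fold. This gave reads for 22434 genes (95.96%), all 48 members included, of which 45 had a length within 10% of the annotation. Only 13 members had exactly the annotated length. The annotation behind the files can thus differ from GENCODE 29, and exon overlaps given here hold for GENCODE 29 alone. In a test on reads simulated at the recovered lengths, 99.4% of 2843 genes had their reads recovered exactly. Those lengths were already the ones nearest the annotation, so the test cannot check that choice. Several lengths met the tolerance for many members, such as 3 for CCNB1 and 6 for CCNA2. Of 10331 genes simulated with counting error alone and no difference between L597R and P-Enter, 4.404% had an interval off 1. Intervals are Clopper-Pearson, conditional on the sum of both reads; copies from amplification are not independent molecules.

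Genes at a mean of 1 FPKM or more were compared by a difference of 1 in log2(FPKM + 1), a pseudocount of 1. No count model was fitted, since no group has a replicate. Alternatives were other pseudocounts, filters, thresholds, scalings and intervals. Exon overlap and GC content came from GENCODE 29 and promoters from RefSeq. The members and lists were chosen with earlier results of these data known. The rule for named genes took the 6 highest members, those below 1 FPKM, the 5 highest and 5 lowest ratios per comparison, up to 4 examples a role and the ratio furthest from 1 in each other list in L597R against P-Enter. The remaining members and SPC24, NCAPD2, VPS33B, MYBL2, WEE1, CDKN1A, CDKN2A, GADD45A, CCNG2, BTG1, ARHGAP11A and MAD1L1 were named besides, with their values known. The tools were Python 3.11.15 with the packages numpy (version 2.4.6), pandas (version 2.3.3), scipy (version 1.17.1) and matplotlib (version 3.10.9).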

Additional observations from a re-analysis of the deposited data

Results flagged for a closer look

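Measured members with WT and L597R on opposite sides of P-Enter, and an interval of L597R against WT that leaves out 1, were CDC20, CENPA and SPC25. For CDC20, WT stood at 1.005 (0.968 to 1.04) times P-Enter, L597R at 0.892 (0.859 to 0.926) times P-Enter and L597R at 0.888 (0.856 to 0.921) times WT. For CENPA the values were 1.002 (0.907 to 1.11), 0.888 (0.802 to 0.983) and 0.886 (0.804 to 0.977) in the same order. In both genes WT differed from P-Enter by less than counting error. SPC25 was below P-Enter in WT, 0.606 (0.394 to 0.926), and above it in L597R with an interval that covers 1, 1.32 (0.934 to 1.87), and L597R was 2.17 times WT (1.48 to 3.23). With 1 library per group, the difference between the conditions was not tested for any of the 3.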

How the results depend on the processing

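For 13 results, counts of members past a rule and median differences in the 3 comparisons, and the median ratio of members with both promoter motifs, 70 values were computed under other settings, and 62 stayed within 1.5 times the reported count or, for a median, inside its binomial interval over the members, which is spread among genes and not replicate error. Counted as inside were also the medians after the regression. These were 0.04 in place of 0.13 in L597R against P-Enter and 0.02 in place of 0.07 in L597R against WT. Members went both ways, so an interval over their spread does not show that a median was stable. The values outside these limits were the following. With a pseudocount of 0.1, 1 member (SPC25) passed the size rule in L597R against WT. With a threshold of 0.5 on the log2 scale, 3 members (TTK, ECT2 and CDK1) passed in L597R against P-Enter and 1 (SPC25) in L597R against WT. With 99% intervals, 4 members in place of 7 lay below 1 in WT against P-Enter and 5 in place of 9 in L597R against WT. Over the regression trend, 7 in place of 17 lay above 1 in WT against P-Enter, 6 in place of 15 below 1 in L597R against P-Enter, and 13 in place of 23 above 1 in L597R against WT; that setting was chosen after seeing the data. Rescaling by the median ratio moved no count by more than 1. For NUSAP1 and PRC1 depth allows no statement, and for SPC25 it allows only wide intervals. No paired analysis was possible because each group has 1 library and the labels carry no replicate numbers. No library could be left out, since its group would then be empty.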

Other observations

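Genes that hold the cell cycle back were also measured. Of 9 measured cell-cycle inhibitors and quiescence genes, 1 lay above P-Enter in L597R and 1 below, and 0 and 2 in WT. Over all genes tested the shares were 25.6% above and 23.9% below in L597R, and 14% and 12.1% in WT. CDKN1A (p21), the inhibitor induced by p53, was at 16.4, 15.5 and 17.8 FPKM in the order P-Enter, WT and L597R, a ratio of 1.08 (0.976 to 1.197) for L597R against P-Enter. CDKN2A was at 6.64, 6.92 and 5.81 FPKM. GADD45A, the 1 gene above P-Enter in L597R, was at 74.3, 73.4 and 85.4 FPKM, a ratio of 1.15 (1.08 to 1.22), with 51.5% GC. CDKN2C (p18), an inhibitor of CDK4 and CDK6, was lower in L597R, at 19.04, 17.5 and 15.2 FPKM and a ratio of 0.7996 (0.722 to 0.885), with 58.1% GC. CCNG2, a cyclin of resting cells, was lowest in WT at 1.47, 1.02 and 1.55 FPKM, with 0.691 (0.537 to 0.887) for WT against P-Enter. BTG1, the other gene below P-Enter in WT, was at 3.47, 2.59 and 3.24 FPKM, with 0.746 (0.613 to 0.908).

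Among the mitotic genes outside the members, MAD1L1, the checkpoint partner of MAD2L1, was also near 0, at 0.0757, 0.0734 and 0.0606 FPKM, although it shares no exon base with a gene on its strand. ARHGAP11A, a cytokinesis gene, was lowest in WT, at 1.198, 0.737 and 1.1 FPKM, with 0.616 (0.4501 to 0.839) for WT and 0.918 (0.698 to 1.21) for L597R against P-Enter. ARHGAP11A has a close paralog, ARHGAP11B, and whether reads were shared between them was not tested.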
